A study of Mus musculus with 3 samples.

Results

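The adult mouse brain and liver were compared through 1 strand-specific library of polyadenylated RNA each, made from male C57BL/6 mice aged 11 weeks with no treatment named in the labels. The same series holds a testis library, which served here only as a reference for a few levels. Gene levels were the deposited FPKM values, in which sequenced fragments are scaled by the length of the transcript and by the mapped total of the library. Each value comes with 2 confidence bounds and a status for the estimate. The genes compared were those whose locus spanned 200 bp or more and whose estimate had status OK in both organs, which left 30242 of the 36809 gene identifiers. The labels do not say how many animals gave each organ, and with 1 library per organ the spread between animals is not measured. Differences are therefore described by size on log2(FPKM + 1), a scale that understates the difference of low genes, and no p-value is given.

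Brain and liver are organs with opposite divisions of labour. Neurons of the brain signal through ion channels, synaptic vesicles and receptors, and glia insulate axons with myelin, clear transmitters and feed neurons. Hepatocytes of the liver secrete most plasma proteins into the blood, make bile acids and urea, store and release glucose, break down amino acids and fatty acids, and oxidise and conjugate drugs and steroids. Many of these tasks use members of the same gene families, so the comparison is given by function and by family.

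Markers of neurons, oligodendrocytes and hepatocytes followed the organ labels. The 5 neuronal markers Snap25, Syp, Syt1, Stmn3 and Tubb3 summed to 1788 FPKM in brain and 0.878 in liver, and the 5 oligodendrocyte markers to 2334 and 0.470. The latter include Mbp, Mobp and Mag, at 869, 601 and 44.6 FPKM in brain, whose liver estimates were marked as low data. Of the 6 hepatocyte markers, Alb, Apoa1, Serpina1a, Cyp2e1 and Fga stood between 806 and 20975 FPKM in liver and between 0.211 and 3.73 in brain. The remaining one, the thyroid hormone carrier Ttr, stood at 6286 FPKM in liver and 1625 in brain. Ttr is also made by the choroid plexus, whose markers Kl, Folr1 and Clic6 were at 2.75, 10.8 and 3.93 FPKM in brain and at 0.00375, 0 and 0.0155 in liver. Markers of other liver cells were low and did not all follow the labels. The 4 cholangiocyte markers summed to 4.96 FPKM in brain and 2.20 in liver. Of these Sox9 was higher in brain, at 4.83 against 1.06, and Krt19, Krt7 and Epcam were higher in liver. The 4 stellate cell markers summed to 4.85 and 4.86, with Reln and Col1a1 higher in brain and Lrat and Des higher in liver. In whole organs, fewer cells of a type and less RNA per cell cannot be told apart.

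Promoter sequences show what several of the genes described below carry just before their start. The sequences are from RefSeq (GRCm38.p6), read 5′ to 3′ on the strand of the gene and ending at the base before the annotated start, and they were chosen with their values known. In the first set, of genes that were high in liver, capitals mark the letters GTTAAT or their reverse complement, which make up a half-site of the liver factor HNF1. Albumin carries blood fatty acids, fibrinogen alpha (Fga) forms clots, and Fabp1 binds fatty acids inside hepatocytes.
Alb (chr5:90460750-90460869, plus strand): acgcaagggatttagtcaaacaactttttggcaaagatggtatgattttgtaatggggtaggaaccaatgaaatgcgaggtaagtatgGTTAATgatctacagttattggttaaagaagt
Fga (chr3:83026033-83026152, plus strand): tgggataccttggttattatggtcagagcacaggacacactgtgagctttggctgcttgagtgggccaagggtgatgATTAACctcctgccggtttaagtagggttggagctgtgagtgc
Fabp1 (chr6:71199759-71199878, plus strand): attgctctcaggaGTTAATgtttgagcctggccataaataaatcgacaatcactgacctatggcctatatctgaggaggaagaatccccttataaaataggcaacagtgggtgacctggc
The half-site began 32 bases before the start in Alb, 43 in Fga and 107 in Fabp1. On either strand it occurs in 6.43% of the 32851 promoter windows of the RefSeq table, read over the 250 bases before the start. In the second set, of genes that were high in brain, capitals mark TGACGTCA, the cyclic AMP response element, which reads the same on both strands. Somatostatin (Sst) is a neuropeptide of inhibitory neurons, and chromogranin B (Chgb) packs peptides into dense-core vesicles.
Sst (chr16:23890845-23890964, minus strand): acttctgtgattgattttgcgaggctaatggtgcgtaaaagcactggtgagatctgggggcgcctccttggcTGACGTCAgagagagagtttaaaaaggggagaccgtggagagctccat
Chgb (chr2:132781522-132781641, plus strand): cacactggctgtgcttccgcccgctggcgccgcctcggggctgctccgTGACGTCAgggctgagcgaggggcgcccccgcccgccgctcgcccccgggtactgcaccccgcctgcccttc
The element began 48 bases before the start in Sst and 72 in Chgb, and it occurs in 1.55% of all windows. Among neuropeptide and prohormone genes, 3 of the 22 with a window held it, namely Sst, Cartpt and Pcsk1. A match of letters is a description and not evidence of binding.

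Across all genes compared, 2783 were called higher in brain, which was 9.20%, and 981 higher in liver, which was 3.24%. A gene was called when its levels differed by at least 4-fold on log2(FPKM + 1) and its confidence bounds did not overlap. Brain therefore held 73.9% of the called genes, a split that moved to 59.8% with each library scaled by the median ratio, 85.4% with scaling to the sum over the genes compared and 88.4% with scaling to the protein-coding sum without mitochondrially encoded genes. Under these scalings the median difference over all genes, 0.05 as deposited, was 0.00, 0.19 and 0.24. Among protein-coding genes 2529 of 19021 were called higher in brain (13.3%) and 884 higher in liver (4.65%), and the gene lists and families below are read against these shares.

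**Figure D1:**
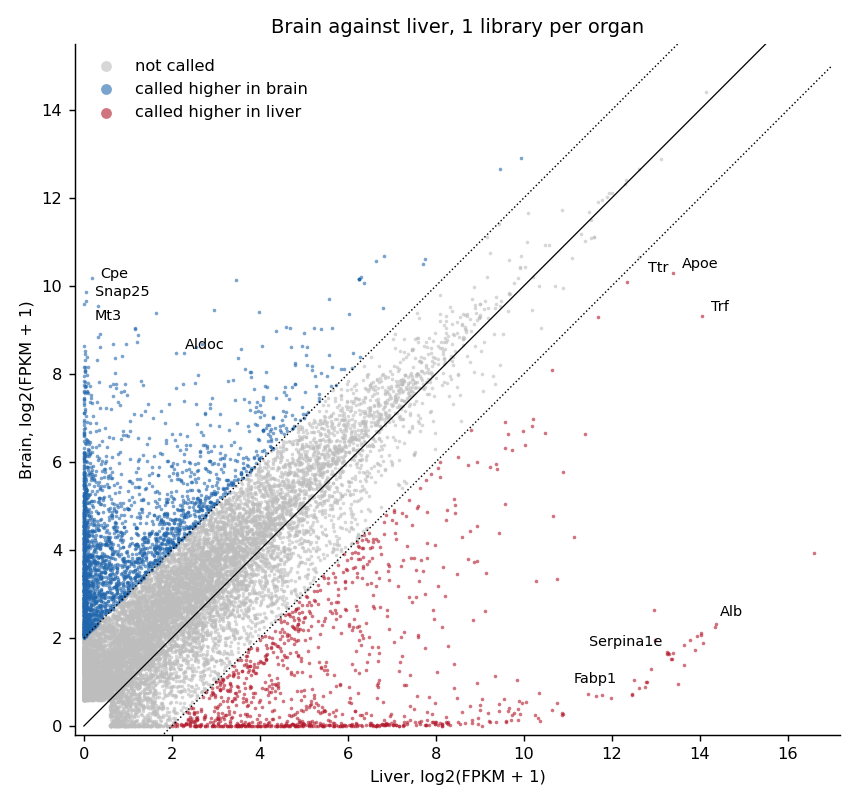
Level of each gene in liver (x axis) and brain (y axis), both as log2(FPKM + 1), for genes at 0.5 FPKM or more in either organ; blue and red mark genes called higher in brain and in liver, the solid line marks equal levels and the dotted lines mark 4-fold. Of the 2783 genes called higher in brain 1861 were under 1 FPKM in liver and 922 at 1 FPKM or more. The 981 called higher in liver reach the highest levels, such as Alb at 20975 FPKM.

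Called genes were more numerous in brain and stood at higher levels in liver. The brain calls had a median of 15.6 FPKM in brain over protein-coding genes, and these held 30.2% of protein-coding FPKM in brain and 0.985% in liver. The liver calls had a median of 38.8 FPKM in liver, and these held 68.4% of protein-coding FPKM in liver and 2.07% in brain. Of the genes called higher in brain 1861 were under 1 FPKM in liver and 363 of them were listed at 0. Of those called higher in liver 559 were under 1 FPKM in brain and 92 were listed at 0.

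All 22 genes of the neuronal identity list were called higher in brain, with a median difference of 7.45, and their levels summed to 4466 FPKM there against 1.74 in liver. Calls in families of ion channels and transmitter receptors were on the brain side, while many members were not called. Potassium channels set firing and resting potential, and 16 of 36 voltage-gated members were higher in brain, among them Kcnc1 (27.5 FPKM against 0.00121). Of 18 calcium channel genes 12 were higher in brain, led by Cacng3 at 36.6 FPKM, which was listed at 0 in liver. Of 15 ionotropic glutamate receptor genes 8 were higher, led by Grin1 at 51.9 FPKM against 0.00161, and of 18 GABA-A receptor subunits 11. None of the members of these 4 families was called higher in liver. Shares were lower in other families of this kind, with 2 of 14 two-pore potassium channels, 2 of 14 serotonin receptors, 4 of 20 nicotinic and muscarinic receptors and 1 of 5 glycine receptors higher in brain, where all protein-coding genes gave 13.3%. All 5 neurexin and neuroligin genes, which bridge the synaptic cleft, were higher in brain, with Nrxn2 highest at 22.1 FPKM against 0.0597. Among leucine-rich repeat adhesion proteins of the synapse 17 of 25 were higher, with Lingo1 at 40.9 FPKM and listed at 0 in liver. On the receiving side, 16 of 20 postsynaptic scaffold genes were higher in brain and none in liver, led by the calmodulin-binding Nrgn at 333 FPKM against 0.0565 and the scaffold Dlg4 at 72.9 against 0.102. Axon guidance genes gave 10 of 23 on the brain side, with the growth inhibitor Rtn4 at 388 FPKM against 24.99.

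**Figure D2:**
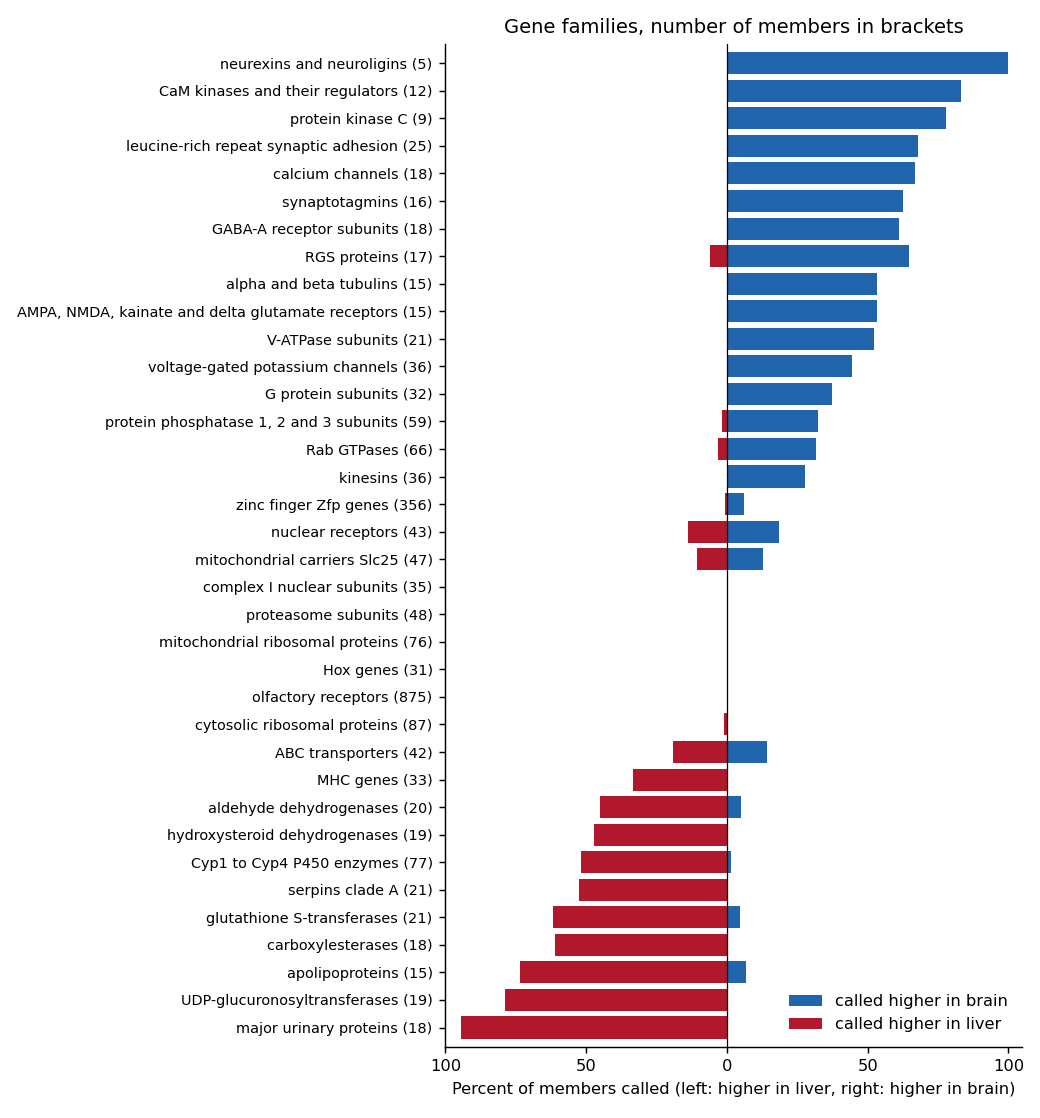
Percent of the members called higher in liver (red, left) or in brain (blue, right) for gene families selected from the 115, with the number of members in brackets. Of the families shown, channels, receptors and signalling families extend to the right and detoxification and secreted protein families to the left. Ribosomal, proteasome and complex I subunits stay near 0 on both sides. Families not shown include serotonin receptors (2 of 14 higher in brain), glycine receptors (1 of 5) and sulfotransferases (2 of 20 higher in brain and 4 in liver).

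Calls among signalling proteins behind these receptors were mostly on the brain side. Of 12 CaM kinase genes and their regulators 10 were higher in brain, with the inhibitor Camk2n1 at 245 FPKM against 12.8 and the kinase Camk2b at 104 against 0.851. Many transmitter receptors act through G proteins, which RGS proteins switch off. The G protein alpha subunit gene Gnao1 stood at 263 FPKM in brain and 0.0230 in liver, and 12 of 32 G protein subunit genes were higher in brain. Of 17 RGS genes 11 were higher in brain and 1 higher in liver, Rgs1 at 4.14 FPKM against 0.0991. Calcineurin subunits led the phosphatases, with Ppp3ca at 252 FPKM against 5.04, and the phosphatase families gave 19 of 59 on the brain side. Their exception in liver was Ppp1r3b, which brings a phosphatase to glycogen, at 38.7 FPKM against 0.273.

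Genes of vesicle release and acidification were called on the brain side. In the list for synaptic vesicle release 30 of 34 genes were called higher in brain and none higher in liver, with a median difference of 5.11, where all genes had 0.05. Complexin 1 (Cplx1), which clamps fusion, stood at 398 FPKM in brain and 0.00573 in liver, and the fission GTPase Dnm1 at 223 and 0.0120. The widely expressed dynamin Dnm2 was at 9.95 and 9.29 FPKM, a difference of 0.09. The vesicle must be acidified before it is filled, and 11 of 21 V-ATPase subunit genes were higher in brain, from Atp6v0c at 288 FPKM against 35.4 to Atp6v1g2 at 164 against 0.701. Of 66 Rab GTPases, which direct vesicles, 21 were higher in brain, led by Rab6b (79.7 against 0.127), and 2 higher in liver, Rab32 and Rab17 at 9.68 and 6.51 FPKM.

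Transmitter genes separated by system. For GABA the synthetic enzymes Gad1 and Gad2 were at 70.2 and 16.6 FPKM in brain against 0.0107 and 0, and 5 of 8 genes of the system were higher in brain. The taurine and GABA carrier Slc6a13 went the other way, at 1.77 FPKM in brain and 29.8 in liver, and the GABA-degrading enzyme Abat was at 45.8 and 64.5. Glutamate handling was shared: 5 of 11 genes were higher in brain, led by the vesicular transporter Slc17a7 at 100.2 FPKM against 0.00674, while Glul, which makes glutamine, stood at 441 and 153. Monoamine and acetylcholine genes gave 5 of 16 higher in brain and 2 in liver, with a median difference of 0.36. The neuron-specific synthetic enzymes Tph2 and Th (10.2 and 4.34 FPKM in brain) were listed at 0 in liver, while the degrading enzyme Maob was higher in liver, at 6.80 FPKM in brain and 32.1 in liver.

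Peptide signalling was on the brain side. Of 25 neuropeptide and prohormone genes 18 were higher in brain and none in liver, with a median difference of 3.35. The carboxypeptidase Cpe trims prohormones and stood at 1160 FPKM (bounds 1154 to 1166) against 0.134. The peptides Cck and Sst were at 268 and 195 FPKM in brain, with Cck at 0.0230 and Sst listed at 0 in liver.

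Glial lists were higher in brain with a few exceptions. Of 23 myelin genes 19 were higher in brain, among them Bcas1 at 146 FPKM against 0.00998, and transferrin (Trf) was the 1 gene called the other way, at 641 FPKM in brain and 17060 in liver. Mbp, Mobp and Mag, given above, are outside the comparison for their low-data estimates in liver. Of 19 astrocyte genes 12 were higher in brain, led by the matrix protein Sparcl1 at 523 FPKM against 1.25. Apolipoprotein E (Apoe) was at 1258 FPKM in brain and 10747 in liver, and the folate enzyme Aldh1l1 at 13.03 and 222. The chaperone Clu and the differentiation gene Ndrg2, used as astrocyte genes, were not called, at 703 and 1159 FPKM for Clu and 219 and 179 for Ndrg2.

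Ganglioside and sphingolipid genes, whose products fill neural membranes, gave 7 of 16 higher in brain and none in liver. Fa2h, which hydroxylates myelin lipids, was at 9.64 FPKM and listed at 0 in liver, and the sialyltransferase St8sia3 was at 18.7 against 0.371.

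Resident macrophages and endothelium differed by organ-specific genes in both directions. Microglial genes P2ry12 (9.48 FPKM against 0.423) and Cx3cr1 (4.08 against 0.0435) were higher in brain, and Kupffer cell genes Cd5l (27.6 against 0.0359) and Clec4f (19.8, listed at 0 in brain) higher in liver. The complement gene C1qb was at 18.5 and 13.1 FPKM and the receptor Csf1r at 9.49 and 4.24, neither of them called. The barrier genes Slc2a1, a glucose transporter, and Cldn5, a tight junction claudin, were at 37.7 and 20.02 FPKM in brain against 2.71 and 1.80. The sinusoid lectin Clec4g had 23.7 FPKM in liver against 0.0762. The list medians were 0.46 for macrophages and -0.64 for endothelium, and both changed sign with the scaling, over ranges of -0.14 to 1.404 and -1.15 to 0.21.

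**Figure D3:**
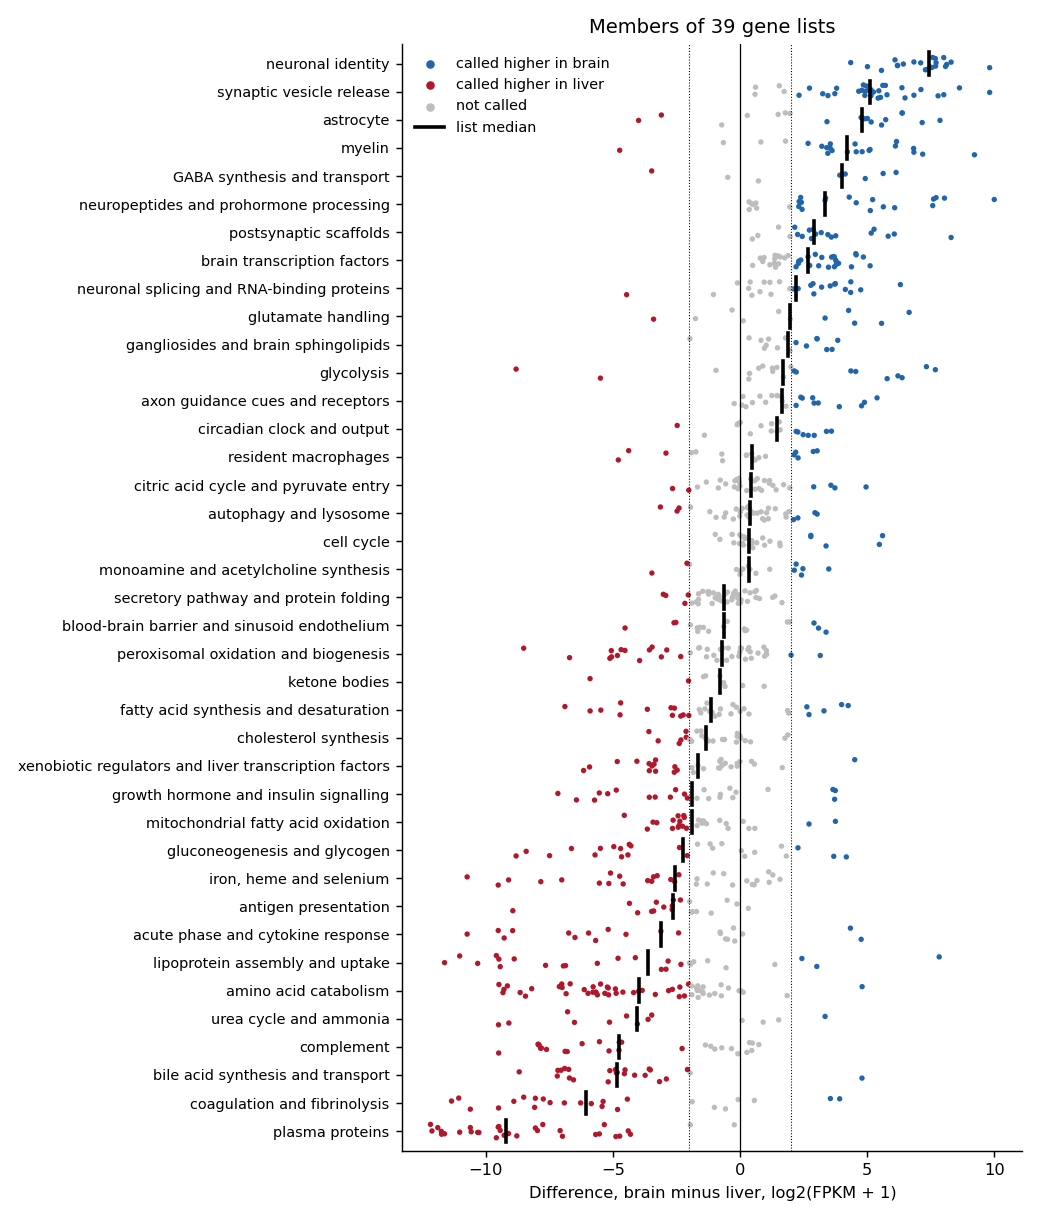
Difference between brain and liver on log2(FPKM + 1) for each member of 39 gene lists, one dot per gene, with the list median as a black bar and dotted lines at 4-fold. Neuronal and synaptic lists lie at the right with medians up to 7.45, plasma proteins at the far left with a median of -9.19, and lists of general metabolism straddle 0 with single genes far out on either side.

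Secreted plasma proteins had the lowest median of the 39 lists. Of 32 genes 30 were higher in liver and none in brain, with a median difference of -9.19. The serpin Serpina1e stood at 15228 FPKM in liver and 2.30 in brain, and Apoa1, the main protein of high-density lipoprotein, at 9952 and 2.16. The others were Ttr, described above, and Afp, a fetal protein at 0.203 FPKM in liver and 0.0280 in brain. Of 24 coagulation and fibrinolysis genes 17 were higher in liver, led by fibrinogen, with Fgb at 4031 FPKM against 0.549. Tissue factor (F3), which starts clotting outside vessels, and the plasminogen activator Plat were the 2 called higher in brain, at 29.4 and 11.7 FPKM against 1.01 and 0.0845. Of 27 complement genes 16 were higher in liver, with C3 at 940 FPKM against 0.307, and none higher in brain.

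Nitrogen and amino acid metabolism was on the liver side. Of 13 urea cycle and ammonia genes 9 were higher in liver, with arginase (Arg1) at 880 FPKM against 0.218 and Cps1, which fixes ammonia, at 591 against 0.0860. Amino acid breakdown gave 37 of 57 genes higher in liver with a median difference of -3.99, led by the glycine methyltransferase Gnmt (945 against 0.477) and Bhmt (852 against 0.192). The exception was Bcat1, the cytosolic branched-chain transaminase, at 27.0 FPKM in brain against 0.00418. General enzymes of the same list were near level, with Got1 at 134 in brain and 122 in liver and Dld at 91.6 and 94.1.

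Genes of glucose handling were called in both directions. Glycolysis gave 9 of 21 genes higher in brain and 2 in liver, with Aldoa at 527 FPKM against 24.7, Pkm at 357 against 3.83 and Eno2 at 219 against 0.0732. Gluconeogenesis and glycogen genes gave 14 of 26 higher in liver, among them Pck1 at 363 FPKM against 0.0696, and 3 higher in brain, the glycogen genes Pygb, Pygm and Gyg. Genes of the citric acid cycle and pyruvate entry differed little as a list, with 4 of 33 higher in brain and 2 in liver and a median of 0.42 that ranged from -0.25 to 1.28 across settings. Malate dehydrogenase 1 (Mdh1), for example, was at 396 FPKM in brain and 262 in liver.

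The lists of lipid metabolism had more genes called higher in liver than in brain, and in several of them most genes were not called. Of 28 genes of mitochondrial fatty acid oxidation 14 were higher in liver, led by the thiolase Acaa2 at 288 FPKM against 11.3, and 2 in brain, Acsl3 and the brain carnitine transferase Cpt1c at 128 and 12.9 FPKM. Lipoprotein genes gave 17 of 26 higher in liver with a median of -3.61, and 3 in brain, Apod at 228 FPKM against 0.00451 and the receptor Vldlr and exporter Abcg1 at 9.58 and 6.51. Bile acid synthesis and transport gave 22 of 24 higher in liver, led by the sterol carrier Scp2 (1913 against 54.0) and the enzyme Akr1c6 (450 against 0.0967). The 1 called higher in brain, Cyp46a1, makes 24-hydroxycholesterol, the form in which brain exports cholesterol, and stood at 28.5 FPKM against 0.0610. Peroxisomal genes gave 14 of 44 higher in liver and 2 in brain, and their median of -0.72 ranged from -1.27 to 0.04 across settings. The urate oxidase Uox was at 509 FPKM in liver against 0.400, and catalase (Cat) at 694 against 19.9. Ketone body genes gave 2 of 9 higher in liver and none in brain. Oxct1 of the same list, at 56.0 FPKM in brain and 1.57 in liver, was outside the comparison for its low-data estimate in liver. Fatty acid synthesis and desaturation gave 12 of 34 higher in liver and 5 in brain, the latter including the elongase Elovl4 at 15.01 FPKM against 0.00431. In cholesterol synthesis 6 of 27 genes were higher in liver and none in brain, with Sc5d at 147 FPKM against 11.4. A pseudogene of Scp2 shares its sequence, so reads may have been divided between them.

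Calls in detoxification families were mostly on the liver side. Cytochromes P450 of families Cyp1 to Cyp4 oxidise drugs, steroids and fatty acids, and 40 of 77 were higher in liver, led by Cyp3a11 at 939 FPKM against 0.105 and Cyp2e1 at 806 against 0.323. Cyp2j9 was the 1 called higher in brain, at 14.3 FPKM against 1.59. The conjugating UDP-glucuronosyltransferases gave 15 of 19 higher in liver, the carboxylesterases 11 of 18 and the glutathione S-transferases 13 of 21. The transferase Gstm5 was the 1 in these families higher in brain, at 142 FPKM against 2.40. Of 42 ABC transporters 8 were higher in liver and 6 in brain. The bile salt exporter Abcb11 stood at 93.4 FPKM in liver against 0.00829, and the lipid transporter Abca2 at 13.4 in brain against 2.21.

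Transcription factors listed for each organ were called on its own side with 1 exception, and many were not called. Of 37 brain factors 23 were higher in brain and none in liver, led by Tcf4 at 52.6 FPKM against 3.08 and Mef2c at 35.3 against 0.259. Of 31 liver factors and xenobiotic regulators 13 were higher in liver and 17 were called neither way, with Hnf4a at 70.1 FPKM and listed at 0 in brain and Creb3l3 at 67.4 against 0.132. The exception was Nr2f1, at 27.4 FPKM in brain against 0.247. Among all 43 nuclear receptors 8 were higher in brain, led by the thyroid hormone receptor Thra at 222 FPKM against 4.72, and 6 in liver, led by the bile acid receptor Nr1h4 at 29.96 against 0.0890. None of 31 Hox genes was called either way, and of 875 olfactory receptor genes 1 was called, Olfr1033 at 3.21 FPKM in liver against 0.0456. No Hox gene and only 2 olfactory receptor genes reached 1 FPKM in either organ, so almost none could be called. Of 356 Zfp zinc finger genes 22 were higher in brain and 3 in liver. The RNA-binding list gave 14 of 26 higher in brain, led by Celf4 at 84.2 FPKM against 0.0759, and A1cf, which partners the editing of Apob RNA, was at 21.02 in liver and listed at 0 in brain.

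Lists of hormone, iron, acute phase and antigen presentation genes had more calls for liver than for brain. Growth hormone and insulin genes gave 12 of 24 higher in liver, among them Igf1 (457 FPKM against 4.30) and the receptor Ghr (145 against 1.76), and 3 in brain, Igfbp5, Igfbp6 and Igf2. Of 31 iron, heme and selenium genes 17 were higher in liver and none in brain, with the iron hormone hepcidin (Hamp) at 2796 FPKM against 0.644. Ferritin heavy chain (Fth1) was at 3241 FPKM in brain and 1089 in liver and was not called. Acute phase genes gave 12 of 21 higher in liver, with haptoglobin (Hp) at 1057 FPKM against 0.451, and 2 in brain, the metallothioneins described below. Antigen presentation gave 11 of 19 higher in liver, with B2m at 854 FPKM against 75.9 and the class I gene H2-K1 at 441 against 20.7. Class I genes are close copies, and the split of reads among them is uncertain. Of 78 interleukin and receptor genes 3 were higher in brain and 2 in liver, and of 33 chemokines 3 each way. Interferon-induced Ifi and Ifit genes gave 1 of 44 higher in brain and 5 in liver. The shares over all protein-coding genes were 13.3% for brain and 4.65% for liver. In these 3 families only 24, 12 and 27 members in the same order reached 1 FPKM in either organ.

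Some pairs of related genes exchanged places between the organs. The 67 pairs were chosen as a brain form and a liver form of the same kind of protein, with earlier results of these data known. The count of opposite calls therefore also reflects that choice. Of the 67 pairs 52 had both genes in the comparison, and in 26 the brain form was called higher in brain and the liver form higher in liver. Fabp1 is in 2 of these 26. Fatty acid-binding proteins gave Fabp3 at 48.1 FPKM in brain and 0.00722 in liver and Fabp1 at 0.610 and 3179. A processed pseudogene of Fabp3 was at 246 FPKM in brain and listed at 0 in liver, and reads may have been divided between them. Glycogen phosphorylase gave Pygb at 42.3 and 1.39 and Pygl at 0.962 and 101, and carbonic anhydrase gave Car2 at 93.1 and 1.79 and Car3 at 0.364 and 437. Membrane transport exchanged too: the glucose transporter Slc2a3 was at 19.4 FPKM in brain and 0.0677 in liver, and Slc2a2 at 0.0167 and 24.7. The deiodinases, which activate or clear thyroid hormone, gave Dio2 at 10.9 in brain and 0.00110 in liver, and Dio1 at 14.97 in liver and listed at 0 in brain. The desaturases gave Scd2 at 142 and 22.1 and Scd1 at 26.5 and 1634, so that both forms were well above 1 FPKM in both organs.

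**Figure D4:**
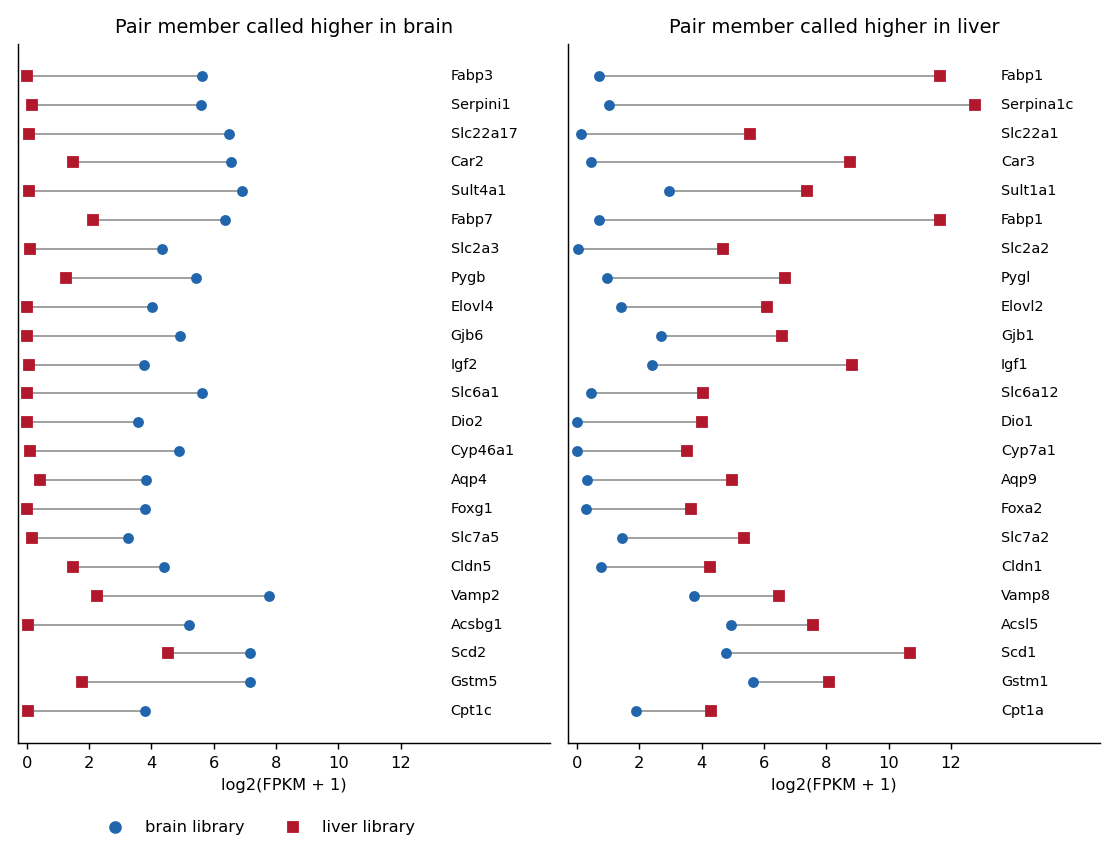
Levels of 23 of the 26 pairs with opposite calls, as log2(FPKM + 1), with the brain form on the left and the liver form on the right of each row and a line joining the brain library (circle) to the liver library (square). Every line on the left runs toward brain and every line on the right toward liver, which is how the pairs shown were selected.

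In the other 26 pairs the exchange was partial or absent. In 10 only the brain form was called and in 8 only the liver form, as for arginase, where Arg2 was at 1.24 and 0.192 FPKM and Arg1 at 0.218 and 880. In 5 pairs both forms were called higher in brain, in 1 both higher in liver, namely Adh5 and Adh1, and in 2 neither was called. Pfkl and Mt3 are each in 2 of the 5 pairs, so these are not separate exceptions. The 5 included phosphofructokinase, where the form named for liver, Pfkl, was at 24.4 FPKM in brain and 4.79 in liver, while Pfkp was at 143 and 1.61.

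Metallothioneins were also among those 5. These small proteins bind zinc and copper, and Mt1 and Mt2 are widely used as genes that respond to metals and to inflammation in liver. All 3 were called higher in brain: Mt3, the brain form, at 812 FPKM (bounds 801 to 824) against 0.0372, Mt2 at 159 against 4.87 and Mt1 at 135 against 5.70. Their promoters (RefSeq, GRCm38.p6) are shown with capitals on the letters TGCGCNC or TGCACNC on either strand, the core of the metal response element.
Mt1 (chr8:94178939-94179088, plus strand): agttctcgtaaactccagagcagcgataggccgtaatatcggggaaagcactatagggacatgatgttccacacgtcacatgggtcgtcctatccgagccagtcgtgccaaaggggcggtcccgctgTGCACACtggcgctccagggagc
Mt2 (chr8:94172468-94172617, plus strand): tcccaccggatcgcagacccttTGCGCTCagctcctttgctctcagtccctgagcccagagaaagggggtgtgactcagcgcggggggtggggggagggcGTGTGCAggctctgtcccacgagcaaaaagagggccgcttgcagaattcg
Mt3 (chr8:94152457-94152606, plus strand): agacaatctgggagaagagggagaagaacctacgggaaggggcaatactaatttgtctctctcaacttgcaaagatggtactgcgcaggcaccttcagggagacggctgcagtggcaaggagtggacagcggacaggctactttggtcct
The 150 bases shown hold 1 match in Mt1 and 2 in Mt2, and the letters are not in the 150 bases of Mt3. These counts cover only the bases shown before the annotated start, and sites elsewhere were not counted. Matches occur in 21.4% of all promoter windows, read over the 250 bases before the start, so the core alone is common.

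Neighbouring genes called the same way formed longer runs on the liver side. Runs of at least 4 adjacent protein-coding genes called higher in liver numbered 16 and held 101 genes, 11.4% of those called, while brain had 12 runs with 51 genes, 2.02%. The longest in liver was the major urinary protein cluster on chromosome 4 (mm9, chr4:59977166-61811897), with 17 genes summing to 169065 FPKM in liver and 30.9 in brain. Many of these pheromone carriers are near-identical copies, as are the 5 Serpina1 genes, so their single values are uncertain. Pseudogenes of the urinary protein cluster may share reads with the 17 genes, and whether the sum is more certain was not tested. The other long runs in liver were also clusters of related genes: 10 on chromosome 5 (mm9, chr5:87318792-87998052), of which 8 are Ugt2 genes and 2 Sult1 genes, 8 Cyp2c genes on chromosome 19, 7 Cyp3a genes on chromosome 5 and 7 on chromosome 10, mostly Rdh genes. The 3 longest in brain had 5 genes each, and each held related genes beside others. They were Tmx4, Plcb1, Plcb4, Lamp5 and Pak7 on chromosome 2, Pdzrn3, Cntn3, Chl1, Cntn6 and Cntn4 on chromosome 6, and Gprasp2, Bhlhb9, Arxes2, Arxes1 and Bex2 on chromosome X.

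Noncoding genes were seldom called. Of 2860 long noncoding genes 39 were higher in brain (1.36%) and 14 in liver (0.490%). Pseudogenes gave 87 and 62 of 4542 (1.92% and 1.37%), small RNA and other genes 18 and 0 of 354 (5.08% and 0.00%), and identifiers without a match in the annotation 110 and 21 of 3465 (3.17% and 0.606%). Brain was led by Pantr1 at 776 FPKM, listed at 0 in liver, and the imprinted Meg3 at 481 against 0.293. The RNA polymerase III transcript Rn7sk stood at 663 FPKM in brain and 2.13 in liver, with its copies Gm26315, Gm26035 and Gm24447 between 338 and 471 in brain. The mitochondrial ribosomal RNAs mt-Rnr1 and mt-Rnr2 were at 6492 and 7704 FPKM in brain and 707 and 978 in liver. The libraries were made from polyadenylated RNA, with 1 library per organ. For Rn7sk, its copies and these ribosomal RNAs, unequal capture in that preparation cannot be told apart from an organ difference. None of the mitochondrially encoded protein genes was called, and mt-Co1 was at 6479 and 6268. The largest liver values were pseudogenes of the urinary protein cluster, with Mup-ps17 at 98789 FPKM against 14.3. How reads were divided among the copies of this cluster is uncertain.

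Several families of housekeeping machinery were close in both organs in the values as deposited. None of 76 mitochondrial ribosomal protein genes, 48 proteasome subunit genes or 35 nuclear complex I genes was called, and of 87 cytosolic ribosomal protein genes 1 was, Rps27l at 86.1 FPKM in liver against 11.9. Their median differences of 0.45, 0.36, 0.64 and 0.38 lie near the 0.57 of all genes at 1 FPKM or more in both organs. All 4 turned negative with median-ratio scaling. With scaling to the sum over the genes compared the 4 medians lay between 1.10 and 1.31. With the protein-coding sum without mitochondrially encoded genes they lay between 1.35 and 1.57. Other such families lay further toward brain, with medians of 1.27 for hnRNP proteins (2 of 19 higher in brain), 1.22 for Mediator subunits (2 of 29), 1.06 for SR splicing factors (1 of 10), 0.95 for nuclear cytochrome oxidase subunits (0 of 17) and 0.67 for RNA polymerase subunits (3 of 28), all positive under the 3 scalings. Of the genes at that level 56.9% were within 2-fold, and 1131 protein-coding genes differed by under 1.2-fold, among them Ptms (687 and 800), Ndufa4 (723 and 654), Atp5g3 (335 and 333) and Rps6 (456 and 393).

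Low levels of each organ's main genes were present in the other library. For the 50 most abundant protein-coding genes called higher in liver, the brain level was a median of 0.0198% of the liver level, and 31 of the 50 lay between 0.01% and 0.03%. Most of these 31 are Mup or Serpina1 genes, many of them near-identical copies, so their percentages are not independent of each other. Albumin, at 3.73 FPKM in brain, was 0.0178% of its liver level. For the 50 most abundant called higher in brain the liver level was a median of 2.52%, with quartiles of 0.0573% and 7.62%. The 6 germ cell markers of the testis summed to 33.6 FPKM in brain and 0.265 in liver. In brain each was 0.0586% to 0.0940% of its testis level, in liver at most 0.00116%. Of the 2783 genes called higher in brain 8 had a brain level under 0.2% of testis, Tnp1 at 13.5 FPKM and Prm2 at 9.56 among them. Whether such low levels come from cells of the organ or from other libraries was not tested.

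**Figure D5:**
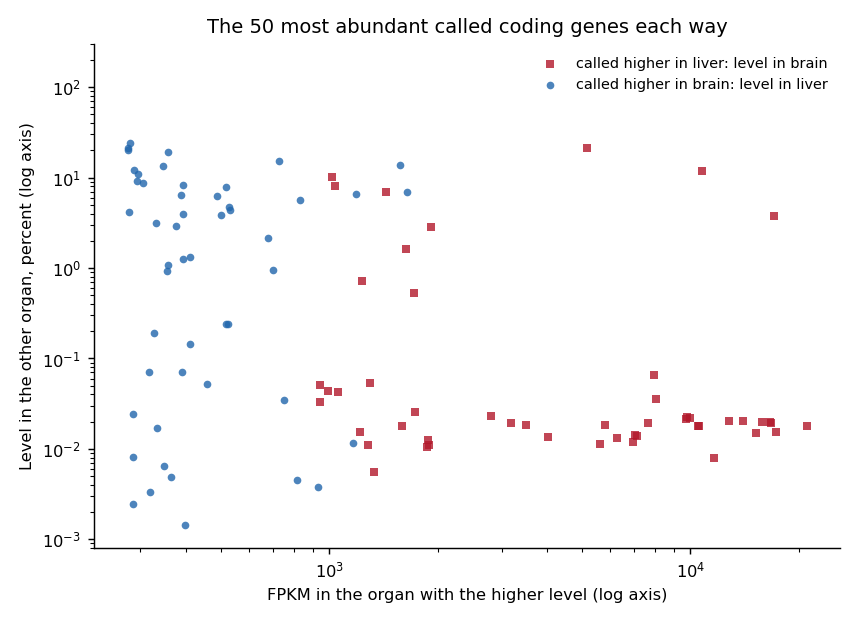
Level in the other organ as a percent of the level in the higher organ (y axis, log scale) against the higher level in FPKM (x axis, log scale) for the 50 most abundant called protein-coding genes each way. Most liver genes lie in a narrow band around 0.0198% in brain, while brain genes spread over several orders of magnitude in liver around a median of 2.52%. Many of the genes in the narrow band are Mup or Serpina1 copies, whose values are not independent.

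Red cell genes were detected in both organs. The globin genes Hba-a1 and Hba-a2 were at 152 and 124 FPKM in brain and at 52.9 and 43.0 in liver, and neither was called. Alas2, the heme enzyme of red cell precursors, was at 1.004 FPKM in brain and 41.2 in liver, where its estimate had failed. The part of blood in other differences was not tested.

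The rule on locus span and status set aside genes on both sides. Of the 31797 loci of 200 bp or more 1555 lacked status OK in an organ, and by the same call 232 of these would be higher in brain and 36 in liver, including Mbp and Camk2a (121 FPKM against 0.0214) for brain and C9 (710 against 0.0333) for liver. Loci of 180 to 199 bp, just outside the rule, had 13 calls for brain and 0 for liver among 100 with status OK, and loci of 200 to 219 bp, just inside, had 6 and 0 among 127.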

How the data were processed

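The brain and liver tables deposited by the authors held FPKM per gene with lower and upper bounds and a status, per the file headers. Reads were processed with Cufflinks 2.0.0, Bowtie 0.12.5 and TopHat 1.4.0 on mm9, per the submitters' processing notes. Neither the annotation nor the level of the bounds is stated in the labels or headers. Libraries were strand-specific and sequenced for 76 cycles, single-end, in 3 lanes each, per the labels' protocols. The tables hold no counts. The upper bound lay a median of 18.1% above the value at 1 to 2 FPKM in brain and 12.4% in liver, and 2.93% and 1.77% above it at 100 FPKM or more, so liver values were the more precise. These bounds cover estimation within a library only.

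Tables were joined on gene identifier, and 12 identifiers at more than 1 locus were summed. Symbols and classes came from GENCODE M21 by identifier, and 26777 of the 30242 genes had a symbol. Differences used a pseudocount of 1, and calls needed 4-fold and bounds apart. The calling was tested on simulated data. Analysis used Python 3.11.15, pandas 2.3.3, NumPy 2.4.6 and Matplotlib 3.10.9. The 39 lists (1103 of 1110 entries matched), 115 families matched by symbol pattern and 67 pairs were chosen with earlier results of these data known, and 3 family patterns or names were corrected after values were seen. Named genes were, by rule, the largest differences, up to 4 called genes with the highest FPKM and up to 3 called against the direction of each list or family, the pairs with the largest differences, the largest noncoding differences, the most abundant near-equal genes and cell type markers. Further genes, such as uncalled list members and the genes outside the rule on status, and the promoters shown, were chosen after their values were seen. Promoter windows matched 76.5% of the protein-coding genes, under the 80% needed, so a comparison of promoters between genes called each way is void and was left out. Alternatives were other pseudocounts, 3 scalings, a filter at 1 FPKM, other folds, no bounds, other spans, any status and protein-coding genes only. Protein sequences were not used here, and a few genes named by the rule are not reported here.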

Additional observations from a re-analysis of the deposited data

How the results depend on the processing

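More genes were called higher in brain than in liver under every alternative run, but their number depended on the scale and the threshold. Genes called higher in brain, 2783 as reported, numbered 5454 and 7197 with pseudocounts of 0.1 and 0.01, 1777 with median-ratio scaling, 4324 with scaling to the sum over the genes compared, 5157 with the protein-coding sum without mitochondrially encoded genes, and 6429 and 1343 at 2-fold and 8-fold. Genes called higher in liver, 981 as reported, numbered 1784 with a pseudocount of 0.01 and 1723 and 608 at 2-fold and 8-fold. The share of called genes higher in brain, 73.9% as reported, was 59.8%, 85.4% and 88.4% under the 3 scalings in the same order. The filter at 1 FPKM, size without bounds, loci of 500 bp or more, loci of any length, any status and protein-coding genes only each gave counts within 1.5 times of those reported. No list or family with a median of 2-fold or more changed direction in the 6 alternatives run on lists. Of the 81 such medians, a pseudocount of 0.1 moved 48 by 2-fold or more and one of 0.01 moved 52, the filter at 1 FPKM moved 18, and a scaling moved at most 2. Of the 73 lists and families with smaller medians, 19 changed sign under at least 1 of the 3 scalings, 12 of them with median-ratio scaling. No paired analysis was possible because each organ has 1 library, and for the same reason no library could be left out.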

Other observations

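Several other groups of genes in brain and liver were described by level alone. Of 19 clock and clock output genes 7 were higher in brain and 1 in liver, with Hlf at 24.6 FPKM in brain against 2.38 and Tef at 24.7 against 2.99. The labels give no time of day. Of 29 cell cycle genes 5 were called, all higher in brain, and 3 of them, Cdk5, Cdk5r1 and Cdk5r2, form a kinase that acts in neurons after division, at 40.3, 52.3 and 44.1 FPKM against 5.01, 0.0949 and 0.0104. The median over this list was 0.37. Lysosome and autophagy genes gave 4 of 35 higher in brain, led by prosaposin (Psap) at 277 FPKM against 56.4, and 3 in liver, led by Ctsl at 364 against 68.3. Their median of 0.39 ranged from -0.20 to 1.31 across settings. In the secretory pathway 4 of 46 genes were higher in liver and none in brain, with the disulfide isomerase P4hb at 803 FPKM against 98.3, and the median of -0.64 ranged from -1.30 to 0.36.

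Membrane proteins of barriers and junctions divided within each family. Among 31 claudins 3 were higher in brain, Cldn11, Cldn10 and Cldn5 at 114, 37.0 and 20.02 FPKM, and 3 in liver, Cldn1, Cldn3 and Cldn2 at 18.02, 12.1 and 8.53. Connexins gave 4 of 19 in brain, led by Gja1 at 66.1 FPKM, and 2 in liver, Gjb1 and Gjb2 at 95.3 and 38.7. Of the Slc17 transporters 2 of 9 were higher in brain, the vesicular glutamate carriers Slc17a7 and Slc17a6, and 4 in liver, Slc17a1 to Slc17a4, which lie in a run on chromosome 13 (mm9, chr13:23898896-24006876). Creatine is taken up through Slc6a8, which was at 14.8 FPKM in brain against 0.709. The mitochondrial ADP/ATP carrier Slc25a4 was at 182 FPKM in brain against 0.979, and the ornithine carrier Slc25a15 at 88.4 in liver against 3.05.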
